A study of Homo sapiens with 6 samples.

Results

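Semaphorins, plexins and neuropilins were examined in human fibroblasts of a model of Ras-induced senescence, as a system of guidance ligands and their receptors. The rows were chosen by name: protein-coding genes called SEMA3 to SEMA7 with a letter, PLXNA to PLXND with a digit, NRP1 or NRP2. This gave 30 of the 57819 genes in the table, namely 19 semaphorins (the ligands), 9 plexins and 2 neuropilins (the receptors). SEMA3B is listed as a processed transcript and so was not a member. The cells were IMR90 ER:Ras, an established human lung fibroblast line with an oncogenic Ras that is joined to part of the estrogen receptor, so that 4-hydroxytamoxifen (4OHT) switches Ras on and the cells become senescent. All 6 libraries came from cells labelled as 4OHT-treated, at 200 nM for 3 days per the labels' protocols. Whether the cells were senescent by then was not examined here. In 3 libraries the cells had a scrambled siRNA (control), and in 3 the siRNA targeted sin-lncRNA, a long noncoding RNA (knockdown). The labels name 1 cell line and give the siRNA against the target 1 name. The column headings of the deposited values add an unexplained ending to that name, so whether it was a single design is not known. The labels do not say that replicates came from separate cultures, so p-values measure the spread between these libraries, which may be technical.

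Semaphorins are secreted, membrane-spanning or lipid-anchored proteins that share a sema domain and were first known for steering growing axons. Plexins are their signalling receptors: the intracellular part carries signals that act on adhesion and the cytoskeleton. Neuropilins have short intracellular tails and act as co-receptors, binding most class 3 semaphorins together with a plexin, and also binding VEGF family growth factors. In lung and other connective tissue these proteins are known for guiding vessels and nerves and for effects on cell migration and inflammation.

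Reads assigned to genes totalled 30271192 to 50913672 in control libraries and 22117324 to 27882280 in knockdown libraries, so every knockdown library was the shallower. The targeted lncRNA stood at 4.17 ± 0.52 RPM (reads per 1000000 of the effective library size) in controls and 0.556 ± 0.076 in knockdowns (SD, n = 3). Fibroblast markers were abundant, and all 10 on the list were tested, with a summed level of 40503 to 42316 RPM in controls and 40676 to 42126 in knockdowns. That sum is mostly FN1, and each of the 10 was called, 5 higher and 5 lower: COL1A1 stood at 54.4% of control, COL1A2 at 58.7% and PDGFRB at 64.9%, and LUM at 160%. Their part in the results was not tested. Of 5 endothelial markers, 2 never exceeded 3 reads in any library, CDH5 among them, while TIE1, TEK and VWF were detected. PECAM1 was also planned as an endothelial marker but has no value here, so it was not examined. The 5 endothelial markers summed to 20.2 to 24.7 RPM in controls and 16.3 to 17.3 in knockdowns. Summed levels in controls and knockdowns, respectively, were 4.35 to 5.09 and 3.07 to 3.63 RPM for 6 epithelial markers, 0.954 to 1.33 and 0.359 to 1.39 for 6 immune markers, and 44.95 to 45.6 and 42.3 to 49.5 for 6 neuronal markers. Of these lists, 4, 4 and 1 genes, respectively, never exceeded 3 reads, and KRT5, SCGB1A1 and STMN2 had no read in any library. The endothelial and epithelial sums were thus lower in all knockdown libraries, but not each marker. Means in controls and knockdowns, respectively, were 14.5 and 8.51 RPM for TIE1, 5.72 and 5.96 for TEK and 1.76 and 2.37 for VWF. TIE1 was called lower, VWF was called higher and TEK was not called. Most of the epithelial sum was CLDN4, at 4.36 and 2.89 RPM. The neuronal sum was mostly SYT1, at 34.9 and 37.4 RPM, which was not called. SNAP25 (log2 fold change -0.64) and GAP43 (-0.46) were called lower, and SYP was not called. The part of these markers in the results was not tested. In bulk RNA, a change in the number of cells expressing a gene and a change in RNA per cell cannot be told apart.

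Promoter windows from RefSeq (GRCh38.p14) are shown for 4 genes on which the comparison turned: SEMA7A, the ligand that fell, NRP2, the co-receptor that rose most, and SEMA4C with PLXNB2, a ligand and its receptor that both rose. Each runs from 250 bases before to 50 after a gene start, 5′ to 3′ on the gene's strand. Capitals mark matches to the GC box GGGCGG, searched on both strands, the letters bound by Sp1-type factors. The windows lie at chr15:74433909-74434208 (minus strand, the first of 2 listed starts), chr2:205682251-205682550 (plus), chr2:96870031-96870330 (minus) and chr22:50301620-50301919 (minus).
SEMA7A: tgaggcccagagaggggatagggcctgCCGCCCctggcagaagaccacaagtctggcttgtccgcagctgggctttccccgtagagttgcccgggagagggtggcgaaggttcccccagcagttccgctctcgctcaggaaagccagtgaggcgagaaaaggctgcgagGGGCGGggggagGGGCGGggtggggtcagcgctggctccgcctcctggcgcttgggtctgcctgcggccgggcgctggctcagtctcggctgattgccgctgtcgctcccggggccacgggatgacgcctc
NRP2: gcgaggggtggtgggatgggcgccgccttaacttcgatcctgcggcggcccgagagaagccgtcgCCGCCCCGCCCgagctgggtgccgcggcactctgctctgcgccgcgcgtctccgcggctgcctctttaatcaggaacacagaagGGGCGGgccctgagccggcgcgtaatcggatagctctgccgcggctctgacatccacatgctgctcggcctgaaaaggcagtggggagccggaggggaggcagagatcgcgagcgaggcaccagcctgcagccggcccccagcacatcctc
SEMA4C: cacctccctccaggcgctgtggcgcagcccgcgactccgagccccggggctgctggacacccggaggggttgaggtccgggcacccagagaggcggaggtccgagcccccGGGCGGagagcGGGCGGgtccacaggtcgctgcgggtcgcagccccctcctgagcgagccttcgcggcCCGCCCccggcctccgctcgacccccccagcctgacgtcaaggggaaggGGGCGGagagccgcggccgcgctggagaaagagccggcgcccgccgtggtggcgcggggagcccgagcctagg
PLXNB2: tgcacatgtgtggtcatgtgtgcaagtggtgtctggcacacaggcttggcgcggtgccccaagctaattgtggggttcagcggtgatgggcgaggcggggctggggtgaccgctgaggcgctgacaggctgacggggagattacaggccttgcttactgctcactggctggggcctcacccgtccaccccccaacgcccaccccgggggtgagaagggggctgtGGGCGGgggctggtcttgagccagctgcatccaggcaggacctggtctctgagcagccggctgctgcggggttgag

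The SEMA7A window held 3 GC boxes, as did that of NRP2, while SEMA4C had 4 and PLXNB2 had 1. All are rich in G and C, at 70.0% for SEMA7A, 70.0% for NRP2, 78.0% for SEMA4C and 66.7% for PLXNB2. Of the 30 members, 26 were matched to a promoter window, taking the first listed start of each. The GC box was found in 19 of these 26 windows (73.1%), against 44.6% of 27305 windows for all genes, and the median GC content was 66.2% against 58.3%. The TATA box TATAAA was in 0 of the 26 (12% of all windows), the AP-1 site TGANTCA in 1, PLXNC1 (7.76%), and the E-box CACGTG in 3, SEMA3E, SEMA4D and SEMA6D (7.43%), with both strands searched for each. These matches describe letters in a window and are not evidence of binding; windows with a GC box occurred among genes that fell, genes that rose and genes that did not pass the test.

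**Figure D1:**
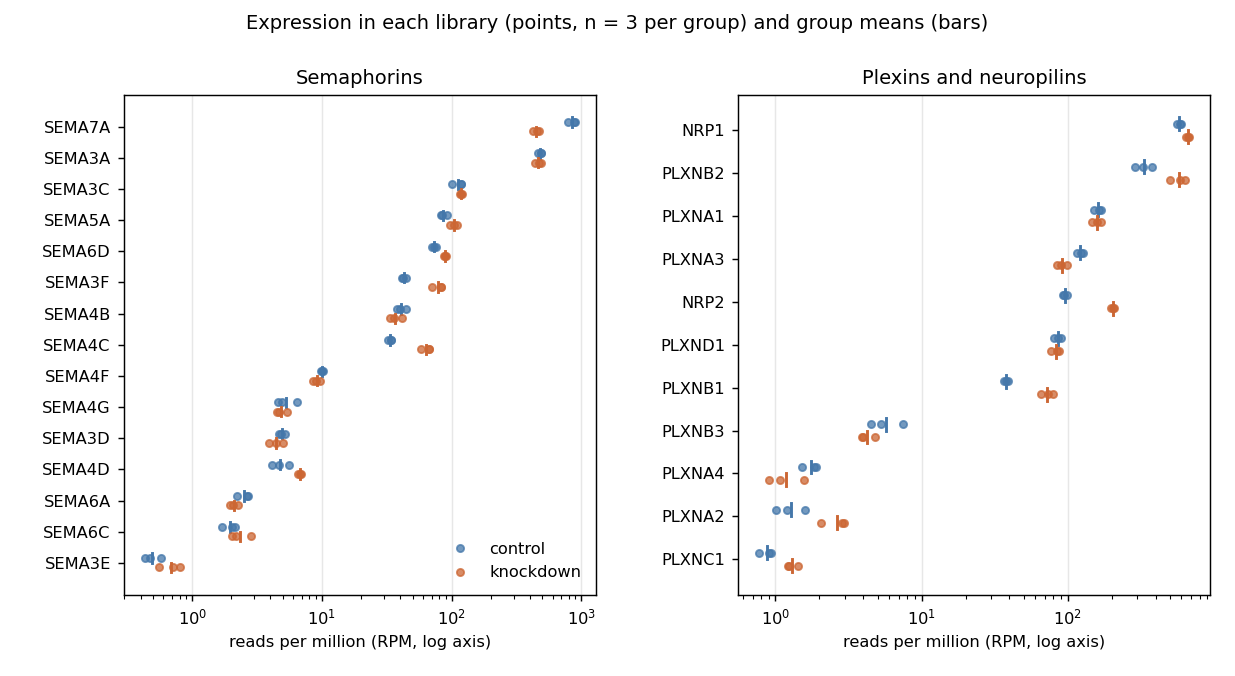
Expression of the 26 tested genes in RPM on a log axis, with 1 point per library and a bar at the mean of each group of 3. SEMA7A was the highest ligand in controls and lower in knockdowns, whereas SEMA3F, SEMA4C, NRP2, PLXNB1 and PLXNB2 stood higher in knockdowns with no overlap.

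The comparison asked how sin-lncRNA depletion altered this ligand and receptor system. The largest changes among tested members were a fall of SEMA7A and rises of NRP2, PLXNA2, PLXNB1, PLXNB2, SEMA3F and SEMA4C. SEMA7A, the most abundant semaphorin in controls, fell to 53.0% of its control level, and the others rose to between 173% and 213% of control. PLXNA2 rested on only 41 to 67 reads per library. Of the receptors tested 7 of 11 passed (63.6%), and of the ligands 6 of 15 (40%), against 48.6% of protein-coding genes; the difference between receptors and ligands was not tested, and 1 of the 7, PLXNC1, lost its call in other fits. Abundant members such as SEMA3A, SEMA3C, PLXNA1 and PLXND1 did not pass it. Differences were tested with limma on the deposited log2 values over the 19048 genes averaging 10 or more normalized reads per library, and genes were called at a Benjamini-Hochberg adjusted p under 0.05.

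Of the 30 members, 26 passed the filter on low values, 15 ligands and 11 receptors. Among them 13 were called, 11 higher and 2 lower in knockdowns. Across all genes tested 41.0% were called, 17.5% higher and 23.5% lower, and across the 13002 protein-coding genes 48.6% were called, 22.2% higher and 26.4% lower. The share of members called (50.0%) was thus near the protein-coding background, while the share called higher was 42.3% and the share called lower 7.69%. When a log2 fold change of 0.5 or more in size was also required, 9 members were called (34.6%), against 13.9% of all genes (6.22% higher and 7.65% lower) and 15.5% of protein-coding genes. Among the 9 were 8 that rose and 1 that fell. In 14 of the 26 (53.8%) the 3 knockdown libraries lay wholly on one side of the 3 controls, against 51.1% of all genes and 57.6% of protein-coding genes. The median log2 fold change was 0.07 for ligands and 0.19 for receptors, against -0.04 for all genes tested. The ligand median was -0.0025 once the trend of each library with GC content and length was removed, so its sign depended on that step. The receptor median is the value of NRP1; it was 0.099 with a pseudocount of 5 RPM, and the median of the 9 plexins alone was -0.03.

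**Figure D2:**
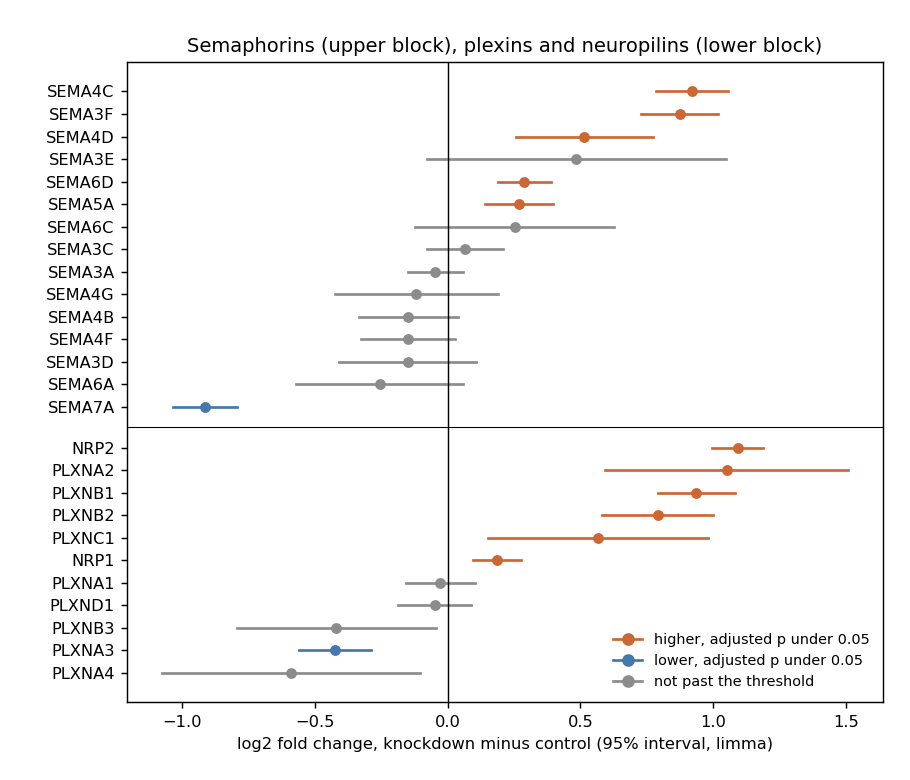
Log2 fold change (knockdown minus control) of the 26 tested genes with its 95% interval from limma, semaphorins in the upper block and receptors in the lower. Of the ligands 5 were called higher and 1 lower, and of the receptors 6 higher and 1 lower.

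SEMA7A is a semaphorin held in the membrane by a lipid anchor that binds PLXNC1 and integrins with the β1 chain. The gene (ENSG00000138623.5) is on chromosome 15 (74701630 to 74726808, minus strand). Gene positions are the table's own, and the submitters' processing notes name the build hg19. It stood at 783, 885 and 874 RPM in control replicates 1, 2 and 3 and at 426, 467 and 453 RPM in knockdown replicates 1, 2 and 3. All 3 knockdown libraries were far below the lowest control. The means were 847 ± 56 and 449 ± 21 RPM (SD, n = 3), resting on 9509 to 44005 reads per library, and the log2 fold change was -0.92 (SE 0.05, with an adjusted p of 7e-07 by limma and Benjamini-Hochberg). After the trend of each library with GC content and length was removed it was -0.76.

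Of the secreted class 3 semaphorins, SEMA3F was the 1 of 5 tested that changed. It binds NRP2 in preference to NRP1 and is known as a repellent of axons and vessels. The gene (ENSG00000001617.7) is on chromosome 3 from 50192478 to 50226508, plus strand. SEMA3F stood at 44.8, 41.2 and 42.4 RPM in control replicates 1 to 3 and at 70.8, 82.5 and 82.4 in knockdown replicates 1 to 3. Every knockdown library was above every control. The log2 fold change was 0.87 (SE 0.07, with an adjusted p of 3.2e-06 by limma and Benjamini-Hochberg).

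The other class 3 genes did not pass the test. SEMA3A, the founding repellent of the class and an NRP1 ligand, stood at 478 ± 16 RPM in controls and 463 ± 24 in knockdowns (SD, n = 3), and the 95% interval of its log2 difference ran from -0.15 to 0.06. SEMA3C, known for its part in heart outflow development, stood at 113 ± 11 and 117 ± 3 RPM with an interval from -0.08 to 0.21. These narrow intervals exclude a change of the size seen in SEMA3F. SEMA3D (log2 fold change -0.15) and SEMA3E (0.48), a ligand that binds PLXND1 without a neuropilin, were far less abundant, and SEMA3E had only 13 to 29 reads per library. SEMA3A, SEMA3C, SEMA3D and SEMA3E lie on the minus strand of chromosome 7 between 80371854 and 84816171, while SEMA3F is on chromosome 3. In the fit with the trend in GC and length taken out, SEMA3A was called lower (log2 fold change -0.18; limma, adjusted p = 0.00096; range over the alternatives 0.00096 to 0.98).

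Among the membrane-spanning class 4 semaphorins, SEMA4C and SEMA4D rose. SEMA4C (ENSG00000168758.6; chromosome 2, 97525453 to 97536494, minus strand) is a ligand of PLXNB2. Its level was 34.4, 32.5 and 34.2 RPM in control replicates 1 to 3 and 58.3, 66.7 and 66.6 in knockdown replicates 1 to 3. The groups were well apart, with a log2 fold change of 0.92 (SE 0.06, with an adjusted p of 1.6e-06 by limma and Benjamini-Hochberg). SEMA4D (ENSG00000187764.7; chromosome 9, 91975702 to 92113045, minus strand), also called CD100, binds PLXNB1 with high affinity and CD72 on immune cells. SEMA4D was at 5.55, 4.13 and 4.63 RPM in control replicates 1 to 3 and at 6.81, 6.53 and 6.95 in knockdown replicates 1 to 3. Its groups did not overlap but lay closer together, and the log2 fold change was 0.51 (SE 0.12, with an adjusted p of 0.0049 by limma and Benjamini-Hochberg). A pseudocount of 5 RPM, close to the gene's own level, gave 0.27 for SEMA4D. SEMA4D overlaps a pseudogene on the opposite strand, RP13-93L13.2, with up to 709 reads in a library. SEMA4D itself had 124 to 233 reads in controls and 152 to 195 in knockdowns.

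SEMA4B, SEMA4F and SEMA4G, membrane-spanning members of the same class, had log2 fold changes of -0.15, -0.15 and -0.12 and did not pass the test. SEMA4F was nevertheless lower in every knockdown library, at 10.1 ± 0.2 RPM in controls and 9.09 ± 0.59 in knockdowns (SD, n = 3). SEMA4B stood at 44.3, 37.8 and 40.2 RPM in control replicates 1 to 3 and 33.2, 41.5 and 35.8 in knockdown replicates 1 to 3, so its groups overlapped. Without knockdown replicate 2, SEMA4B was called lower (log2 fold change -0.24; limma, adjusted p = 0.035). SEMA4G overlaps MRPL43 on the opposite strand, which had up to 2434 reads in a library, and the strand setting of the counting is not given in the sources used here.

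SEMA5A and SEMA6D rose by smaller amounts. SEMA5A, a membrane-spanning ligand with thrombospondin repeats that binds PLXNB3, was at 83.2, 91.8 and 83.5 RPM in control replicates 1 to 3 and 109.5, 96.99 and 104.7 in knockdown replicates 1 to 3. SEMA6D, a membrane-spanning ligand of PLXNA1, was at 72.9, 75.7 and 70.6 RPM and at 89.2, 90.7 and 87.7, respectively. In both genes every knockdown library was above every control. The log2 fold changes were 0.27 for SEMA5A (SE 0.06, with an adjusted p of 0.0038 by limma and Benjamini-Hochberg) and 0.29 for SEMA6D (SE 0.05, with an adjusted p of 0.00053 by limma and Benjamini-Hochberg). SEMA6D overlaps a pseudogene on the opposite strand, CTD-2270N23.1, with up to 5480 reads in a library. SEMA6A, a ligand of PLXNA2 and PLXNA4, and SEMA6C had log2 fold changes of -0.26 and 0.25 on 44 to 111 reads per library, and neither passed the test.

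Low reads left 4 semaphorins untested. SEMA5B had no read in any library, which allows up to 3 reads, or 0.0596 to 0.134 RPM depending on the library and counting error only. SEMA3G had 2 reads in knockdown replicate 3 and none elsewhere. SEMA4A had 0 to 13 reads in controls and 6 to 7 in knockdowns. SEMA6B had 8 to 16 reads in controls and 3 in each knockdown library, or 0.332 ± 0.073 and 0.123 ± 0.014 RPM (SD, n = 3), and its groups did not overlap.

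Both neuropilins rose, NRP2 by far the more. NRP2 (ENSG00000118257.12; chromosome 2, 206546714 to 206662857, plus strand) binds SEMA3F and VEGFC. NRP2 stood at 92.4, 98.6 and 94.95 RPM in control replicates 1 to 3 and at 197, 205 and 208 in knockdown replicates 1 to 3. The lowest knockdown library was thus well above the highest control. The means were 95.3 ± 3.1 and 203 ± 5 RPM (SD, n = 3), a 2.13-fold difference, with a log2 fold change of 1.09 (SE 0.04, with an adjusted p of 6.3e-08 by limma and Benjamini-Hochberg). AC007362.1, a pseudogene listed inside NRP2 on the same strand, was also higher, at 7.94 ± 0.51 and 18.5 ± 0.8 RPM (SD, n = 3), and the reads of these overlapping genes cannot be fully assigned.

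NRP1 (ENSG00000099250.13; chromosome 10, 33466420 to 33625190, minus strand), the co-receptor for SEMA3A and VEGFA, was at 564, 598 and 587 RPM in control replicates 1 to 3 and 675, 641 and 672 in knockdown replicates 1 to 3. These groups did not overlap, but the log2 fold change was only 0.19 (SE 0.04, with an adjusted p of 0.0044 by limma and Benjamini-Hochberg), and 0.12 after removal of the GC and length trend. Per kilobase of exon, the ratio of NRP2 to NRP1 was 0.136, 0.137 and 0.134 in control replicates 1 to 3 and 0.242, 0.265 and 0.256 in knockdown replicates 1 to 3. NRP1 therefore remained the more abundant neuropilin in all 6 libraries.

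Of the class B plexins, the receptors of class 4 semaphorins, PLXNB1 and PLXNB2 rose. PLXNB1 (ENSG00000164050.8; chromosome 3, 48445261 to 48471594, minus strand), the main SEMA4D receptor, was at 39.0, 37.9 and 36.7 RPM in control replicates 1 to 3 and at 65.9, 79.2 and 73.0 in knockdown replicates 1 to 3. Its log2 fold change was 0.94 (SE 0.07, with an adjusted p of 2.1e-06 by limma and Benjamini-Hochberg). PLXNB2 (ENSG00000196576.10; chromosome 22, 50713408 to 50746056, minus strand), a receptor for SEMA4C, was at 375, 291 and 330 RPM in control replicates 1 to 3 and at 503, 633 and 587 in knockdown replicates 1 to 3. Knockdown libraries were above controls for both genes, with wider spread in PLXNB2, whose log2 fold change was 0.79 (SE 0.09, with an adjusted p of 8e-05 by limma and Benjamini-Hochberg). PLXNB3, the SEMA5A receptor, stood at 7.43, 4.53 and 5.29 RPM in control replicates 1 to 3 and 3.94, 4.82 and 3.88 in knockdown replicates 1 to 3, and did not pass the test (log2 fold change -0.42; limma, adjusted p = 0.070). Without control replicate 2, PLXNB3 was called lower (log2 fold change -0.57; limma, adjusted p = 0.011).

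GC-rich members often shared an order of libraries, a pattern chosen after the values were seen. In 7 of the 10 tested members whose transcripts had 60% GC or more, control replicate 1 was the highest control, control replicate 2 the lowest and knockdown replicate 2 the highest knockdown library. These were PLXNA1, PLXNB2, PLXNB3, PLXND1, SEMA3F, SEMA4B and SEMA4C, and of the other 16 tested members 1 did so, PLXNA3. Over the genes tested that had GC values (97.4%), the deviation of a library from its group mean changed by 0.07, -0.06 and -0.00 log2 units per 10 points of GC in control replicates 1, 2 and 3 and by -0.06, 0.05 and 0.01 in knockdown replicates 1, 2 and 3. Between the groups, the median log2 fold change of genes tested ran from 0.03 for the 7278 genes under 45% GC to -0.18 for the 2144 genes at 60% or more. Of the called members with 60% GC or more, SEMA3F, SEMA4C, PLXNB1 and PLXNB2, at 60.4% to 63.1% GC, rose. SEMA7A, at 60.5% GC, fell. The part of GC content in the results was not tested beyond the fit that removes its trend. With the GC and length trend removed, log2 fold changes were 1.03 for SEMA3F, 1.04 for SEMA4C, 1.04 for PLXNB1 and 0.93 for PLXNB2. That of SEMA7A was -0.76, against -0.92 in the main fit.

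Class A plexins, which pair with neuropilins or bind class 6 semaphorins directly, moved in different directions. PLXNA2 (ENSG00000076356.6; chromosome 1, 208195587 to 208417665, minus strand), a SEMA6A receptor, was scarce, at 1.20, 1.598 and 1.01 RPM in control replicates 1 to 3 and 2.96, 2.86 and 2.07 in knockdown replicates 1 to 3. The groups did not overlap on 41 to 67 reads per library, with a log2 fold change of 1.05 (SE 0.21, with an adjusted p of 0.0022 by limma and Benjamini-Hochberg). Pseudocounts of 1 and 5 RPM gave 0.67 and 0.28 for PLXNA2. PLXNA3 (ENSG00000130827.5; chromosome X, 153686621 to 153701989, plus strand), a co-receptor partner for class 3 semaphorins, was at 128, 115 and 123 RPM in control replicates 1 to 3 and at 85.1, 98.9 and 89.5 in knockdown replicates 1 to 3. It was lower in all knockdown libraries, with a log2 fold change of -0.42 (SE 0.06, with an adjusted p of 0.00031 by limma and Benjamini-Hochberg).

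PLXNA1, the most abundant class A plexin per exon length, stood at 161 ± 9 and 158 ± 11 RPM (SD, n = 3), with a 95% interval of the log2 difference from -0.16 to 0.10. PLXNA4, another receptor for class 6 semaphorins, fell short of the threshold on 21 to 76 reads per library (log2 fold change -0.59; limma, adjusted p = 0.052). It passed in 7 of the other fits, among them the one without knockdown replicate 1 (-0.82; limma, adjusted p = 0.010; range over the alternatives 0.010 to 0.16).

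Of the remaining plexins, PLXNC1 rose and PLXND1 did not pass the test. PLXNC1 (ENSG00000136040.4; chromosome 12, 94542499 to 94701451, plus strand), the SEMA7A receptor, was at 0.910, 0.932 and 0.775 RPM in control replicates 1 to 3 and at 1.21, 1.24 and 1.42 in knockdown replicates 1 to 3. The groups did not overlap, on 27 to 40 reads per library, and the log2 fold change was 0.57 (SE 0.19, with an adjusted p of 0.033 by limma and Benjamini-Hochberg). This call was lost in 7 of the other fits, 4 of which left out a library: adjusted p in limma was 0.0505 without control replicate 1, 0.13 without control replicate 3, 0.057 without knockdown replicate 2 and 0.10 without knockdown replicate 3, and it was 0.068 with the replicate block. Pseudocounts of 1 and 5 RPM gave log2 fold changes of 0.29 and 0.10 for PLXNC1. It overlaps CCDC41 on the opposite strand, with up to 385 reads in a library. PLXND1, the SEMA3E receptor, was at 85.6 ± 5.2 and 82.8 ± 5.7 RPM (SD, n = 3), with an interval from -0.19 to 0.09.

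To compare levels between genes, RPM was divided by the exon length of each gene in GENCODE 29. That length merges the exons of all listed transcripts, used or not in these cells, so the order of genes depends on it. In controls SEMA7A was the highest ligand, at 206 to 233 RPM per kb, followed by SEMA3A at 49.1 to 52.2 and SEMA3C at 15.95 to 18.99. SEMA3F and SEMA6D followed at 8.53 to 9.29 and 8.25 to 8.85, and these neighbours overlapped, as did SEMA4B and SEMA4C and, further down, SEMA4D and SEMA6C. Among receptors in controls, NRP1 (48.9 to 51.9 RPM per kb) and PLXNB2 (40.1 to 51.7) overlapped at the top, ahead of PLXNA1 (13.8 to 15.4), PLXNA3 (9.82 to 10.95), PLXND1 (8.25 to 9.32), NRP2 (6.65 to 7.10) and PLXNB1 (3.77 to 4.01). PLXNB3 was at 0.646 to 1.06, and PLXNA4, PLXNA2 and PLXNC1 were lowest, at 0.0735 to 0.116, with overlap of each with the next. In knockdowns PLXNB2 stood above NRP1 in all 3 libraries, at 69.3 to 87.2 against 55.6 to 58.6 RPM per kb, and NRP2 (14.2 to 14.9) overlapped with PLXNA1 (13.4 to 15.4). The order of PLXNB2 and NRP1 rested on the lengths, 7257 and 11522 bases. In RPM alone NRP1 was above PLXNB2 in every library. Knockdown replicates 1 to 3 had 675, 641 and 672 RPM for NRP1 and 503, 633 and 587 for PLXNB2.

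The makeup of ligand RNA per exon length shifted with the fall of its largest component. These shares are not shares of reads and depend on the lengths, 3800 bases for SEMA7A and 9371 for SEMA3A. Without division by length, SEMA7A and SEMA3A overlapped in knockdowns, at 449 ± 21 and 463 ± 24 RPM (SD, n = 3). SEMA7A held 65.96%, 67.8% and 67.6% of the summed semaphorin RPM per kb in control replicates 1 to 3 and 47.6%, 50.3% and 48.9% in knockdown replicates 1 to 3. Class 3 semaphorins held 23.3% to 24.0% in controls and 33.8% to 36.6% in knockdowns, although SEMA3F was the single class 3 gene called. The summed level of all semaphorins was 332 ± 17 RPM per kb in controls and 241 ± 5 in knockdowns (SD, n = 3), whereas without SEMA7A it was 109 ± 2 and 123 ± 2. The total of the ligands was therefore lower and that of the ligands other than SEMA7A higher in all 3 knockdown libraries.

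Plexin RNA per exon length shifted toward class B. PLXNB genes held 61.2%, 58.0% and 59.2% of the summed plexin RPM per kb in control replicates 1 to 3 and 72.6%, 74.3% and 74.1% in knockdown replicates 1 to 3, most of it PLXNB2. PLXNA genes held 28.6% to 31.1% in controls and 18.6% to 19.9% in knockdowns. Summed plexins were at 84.7 ± 8.0 and 118 ± 12 RPM per kb, and summed neuropilins at 57.4 ± 1.7 and 72.1 ± 1.6 (SD, n = 3). Ligand and receptor totals thus lay on opposite sides of their controls in every knockdown library. These sums weigh the most abundant genes and were not tested.

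**Figure D3:**
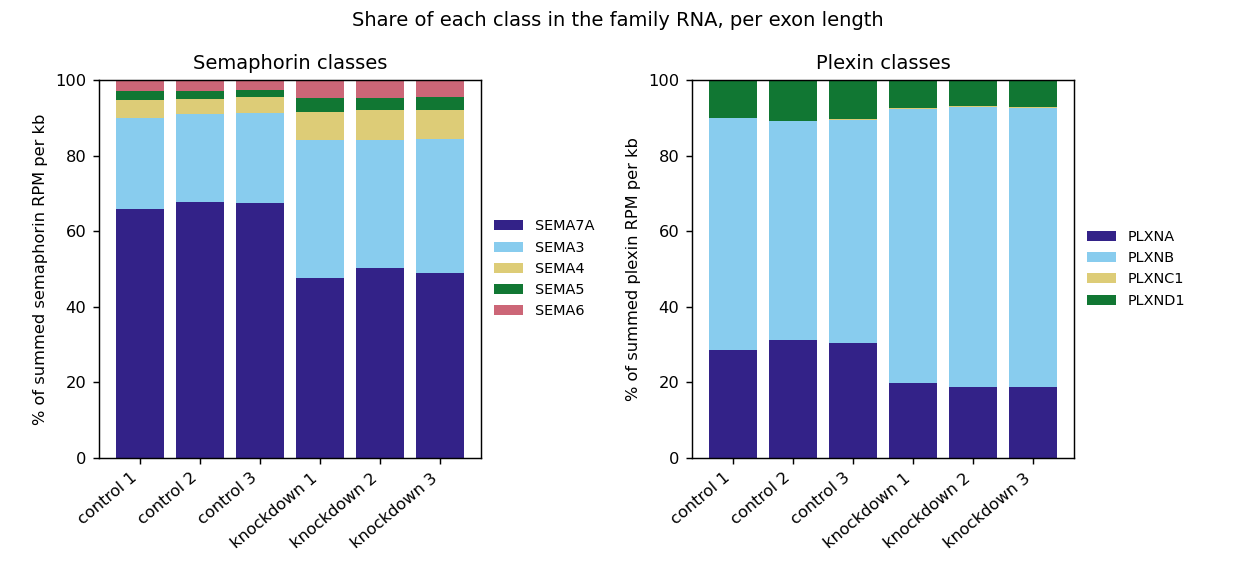
Share of each class in the summed semaphorin (left) and plexin (right) RPM per kb, 1 bar per library, in percent. SEMA7A took 65.96% to 67.8% of semaphorin RPM per kb in controls and 47.6% to 50.3% in knockdowns. PLXNB genes took 58.0% to 61.2% and 72.6% to 74.3% of plexin RPM per kb.

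Ligands were set beside receptors that they are known to bind, in 11 pairs that include the integrin chain ITGB1. In 3 pairs both partners rose: SEMA3F with NRP2, SEMA4C with PLXNB2 and SEMA4D with PLXNB1. In 1 pair the partners moved in opposite directions, with SEMA7A lower and PLXNC1 higher, though the call of PLXNC1 was lost in some fits. ITGB1, the chain of the other SEMA7A receptor and much the more abundant, was at 2546 ± 231 RPM in controls and 2810 ± 29 in knockdowns (SD, n = 3; log2 fold change 0.15; limma, adjusted p = 0.078). In the other pairs at most 1 partner passed the test: NRP1 without SEMA3A, PLXNA2 without SEMA6A, SEMA5A without PLXNB3 and SEMA6D without PLXNA1, and neither partner in SEMA3E with PLXND1 or SEMA6A with PLXNA4. The list set no class A plexin beside a class 3 semaphorin, though these plexins pair with neuropilins. Of them PLXNA3 was called lower (log2 fold change -0.42) and PLXNA2 higher (1.05), while PLXNA1 and PLXNA4 did not pass. SEMA3F with NRP2 is thus only a part of that receptor system. The pairs were picked from textbook knowledge with results of these data known, and their counts were not tested.

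**Figure D4:**
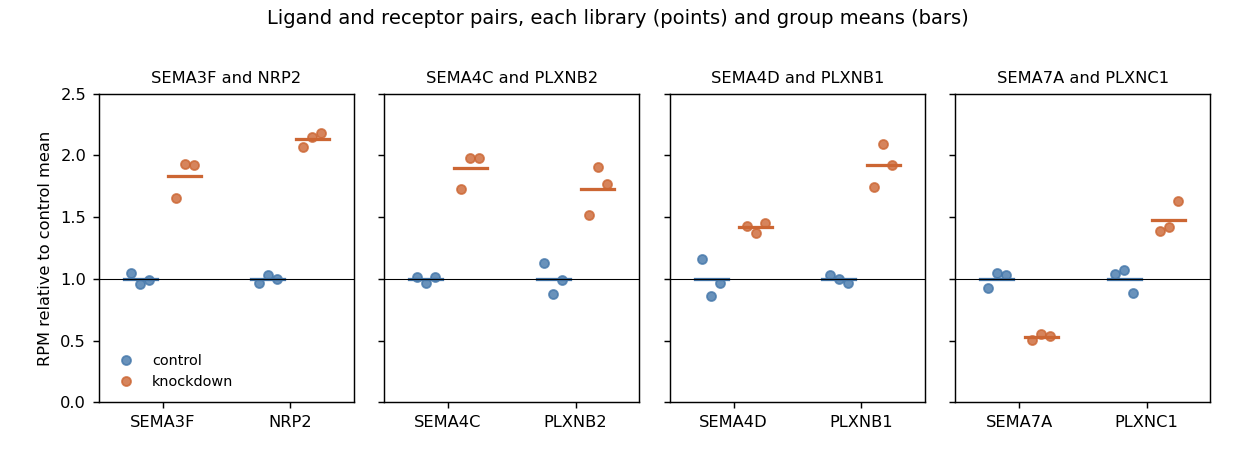
RPM of 4 ligands and their receptors in each library, divided by the gene's control mean (points; bars are group means, n = 3). Knockdown libraries lay at 1.65 to 1.93 for SEMA3F and 2.07 to 2.18 for NRP2, and at 0.503 to 0.551 for SEMA7A and 1.39 to 1.63 for PLXNC1.

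Genomic position was compared for the 9 members called with a log2 fold change of 0.5 or more in size. Of the 18 nearest tested protein-coding genes on either side, 10 were called (48.6% of protein-coding genes were), 4 in the direction of the member and 6 in the opposite one. UBL7, beside SEMA7A, had the largest log2 fold change among the called neighbours (-0.50), in the member's direction. Both neighbours of SEMA4C were lower (ANKRD39 -0.32, FAHD2B -0.37), while those of SEMA3F differed (RBM5 0.17, GNAI2 -0.18). SEMA3B, which lies on chromosome 3 beyond GNAI2, had a log2 fold change of -0.47 and did not pass the test (limma, adjusted p = 0.092).

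Genes that cleave semaphorins or their receptors changed in both directions. Of 6 such proteases tested, 2 rose and 2 fell. Of all genes 17.5% rose and 23.5% fell, and of protein-coding genes 22.2% and 26.4%. ADAM17, a membrane protease that sheds SEMA4D among many other surface proteins, went from 28.8, 30.0 and 27.3 RPM in control replicates 1 to 3 to 59.2, 57.6 and 58.3 in knockdown replicates 1 to 3, a clear separation, with a log2 fold change of 1.02 (SE 0.05, with an adjusted p of 2.9e-07 by limma and Benjamini-Hochberg). The other 3 called, named after their values were seen, were ADAM10, which rose (log2 fold change 0.72), FURIN, the convertase that processes class 3 semaphorins (-0.62), and MMP14, a membrane-anchored matrix metalloproteinase (-0.30). PCSK5 and PCSK7, convertases related to FURIN, did not pass the test.

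Partner receptors and downstream genes were taken from lists by role, whose counts stand beside 41.0% of all genes and 48.6% of protein-coding genes called. Of 8 partner receptors tested, 2 were lower, the receptor tyrosine kinases MET (log2 fold change -0.41) and ERBB2 (-0.20), and 0 higher; both associate with class B plexins, and they were named after their values were seen. Of 31 genes for plexin signalling 10 were higher and 12 lower, a share called of 71.0%, with a median log2 fold change of -0.10, and none reached an absolute log2 fold change of 1. Of 7 other neuropilin ligands, 2 were higher and 4 lower (median -0.19). VEGFA, the best known of them, did not pass the test (log2 fold change -0.00), while VEGFC, which binds NRP2, went from 70.9 ± 4.1 to 45.4 ± 4.2 RPM (SD, n = 3; log2 fold change -0.65). The 2 called higher were PGF (log2 fold change 0.81) and TGFB1 (0.49). These genes were also chosen after their values were seen.

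The other families of axon guidance were counted in the same way. Of all genes 17.5% were called higher and 23.5% lower, and of protein-coding genes 22.2% and 26.4%. Of 12 ligands tested (netrins, slits, ephrins, repulsive guidance molecules and DRAXIN), 3 were higher and 4 lower, with a median log2 fold change of -0.23, against 5 higher and 1 lower of the 15 semaphorins. EFNA1, an ephrin and 1 of the 3 called higher, went from 0.124 ± 0.050 to 0.605 ± 0.291 RPM (SD, n = 3), on 2 to 8 reads in controls and 7 to 21 in knockdowns. It passed the filter on low values only through the knockdown libraries, so it had to differ and its test supports nothing. NTN1, a netrin, went from 0.614 ± 0.085 to 1.32 ± 0.15 RPM (log2 fold change 1.10; limma and Benjamini-Hochberg, adjusted p = 0.0017). It rested on only 18 to 27 reads in controls and 28 to 35 in knockdowns. Of 18 receptors of these families, 4 were higher and 4 lower (median -0.03), against 6 higher and 1 lower of the 11 plexins and neuropilins. The difference between families was not tested.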

How the data were processed

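RNA from 6 libraries, 3 control and 3 knockdown, was read as single 50 bp reads after polyA selection, per the labels' protocols. Bowtie2, featureCounts and hg19 are named in the submitters' processing notes; versions, annotation release and strand setting are not given in the sources used here. The authors deposited log2 values per gene. Undoing an offset of 0.5 reads gave whole numbers (within 0.01) for 100% of values, so these are log2 CPM with that offset, and reads were recovered from them.

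RPM is recovered reads per 1000000 of the effective library size that the deposited values imply. The deposited log2 values were fitted with limma 3.58.1 (R 4.3.3; lmFit, eBayes with trend, two-sided) in 19048 genes with a mean of at least 10 normalized reads, with Benjamini-Hochberg adjustment over all of them. The fit was tested on simulated data that had the same dispersion in every gene and no trend of a library with GC content. Its performance there need not hold for these libraries. The exact permutation test of 3 against 3 libraries cannot go below p = 0.1. Depth limits genes with few reads; a count of 0 allows up to 3 reads, a limit that leaves out amplification by PCR. The chi-square per degree of freedom between replicates was 2.69 to 10.1, so each library counted once. Length and GC content came from GENCODE 29, by gene ID, for 97.4% of genes tested. Members with an adjusted p under 0.05 and a log2 fold change of 0.5 or more in size were to be given by library; of other lists, genes at 1 or more were named. The members and lists were chosen with earlier results of these data known. Alternatives covered pseudocount, filter, scaling, variance model, depth, GC and length, replicate block and each library left out.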

Additional observations from a re-analysis of the deposited data

How the results depend on the processing

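In 20 other fits 12 of the 13 called genes kept their call and direction wherever they were tested, and PLXNC1 lost its call in 7 without changing direction. With a library left out the number of members called was 12 to 14 (ligands 6 to 7, receptors 6 to 8), and the number of all genes called was 5803 to 7330, lowest without control replicate 3. Among all genes, 5195 were called at an adjusted p under 0.01 and 2643 with a log2 fold change of 0.5 or more in size, both fewer by construction; 9 members met the latter. Upper quartile scaling, like quantile normalization, gave 3798 genes higher, with 3892 lower, against 3325 and 4480, and 11 members higher and 2 lower as before. Of the uncalled members, 5 changed sign in some fits, with no call in any of those: PLXNA1 was 0.0067 with upper quartile scaling, 0.063 with the GC and length trend removed and -0.077 to 0.024 with a library left out; PLXND1 was 0.068 with the trend removed and -0.094 to 0.0072 with a library left out; SEMA3A was 0.0013 under quantile normalization; SEMA3C was -0.017 with the trend removed and -0.018 to 0.11 with a library left out; SEMA4G was -0.22 to 0.029 when each library was omitted. The median of the ligands ranged from -0.0025 with the trend removed to 0.16 without the filter, so its sign was not stable. For these the cause was not tested. Deviations from group means had correlations of -0.15, -0.18 and 0.07 between control and knockdown libraries of equal replicate number. Control replicate 1 with knockdown replicate 2 gave 0.17, and control replicate 2 with knockdown replicate 1 gave 0.20. Libraries also differed in their trend with GC content, so these correlations cannot settle whether equal numbers mark pairs. With the replicate block 6454 genes and 12 members were called. Depth limits PLXNA2, PLXNA4, PLXNC1 and SEMA3E, with under 80 reads per library.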
